A study of Saccharomyces cerevisiae with 8 samples.

Results

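The genes described here are 38 genes of budding yeast that act in protein folding in the endoplasmic reticulum (ER), in the unfolded protein response and in ER-associated degradation. They were taken from a list by name, and all 38 were found on the array by their systematic names and were measured, among 6465 genes in all. By role they comprise 16 folding genes, 2 signalling genes, 7 translocation genes, 12 degradation genes and PER1. The study compared transcript levels between strains of Saccharomyces cerevisiae on 8 Agilent arrays, each hybridised with a Cy3-labelled and a Cy5-labelled strain. Ratios compare each gene's share of the labelled RNA, so RNA per cell was not measured. On 4 arrays the double mutant was set against wild type, and on the other 4 against a triple mutant. All strains share the haploid SEY6210 background, which in the wild type is MATα with the marker alleles leu2-3,-112 and ura3-52, as well as lys2-801, with trp1-∆901 and his3-∆200, and also suc2-∆9, and is GAL. The double mutant carries pdr5-∆1::hisG together with yor1-1::hisG, which disrupt genes for plasma membrane transporters that export drugs and lipids. The triple mutant carries both of these and pdr1::kanMX4, which disrupts a transcription factor of pleiotropic drug resistance. Every culture was grown in YPD, a rich glucose medium, at 30 °C to an optical density of about 0.6, and no drug or ER stressor is named in the labels. Arrays 1 and 3 of each comparison had the double mutant in Cy5, and arrays 2 and 4 had it in Cy3.

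The labels of the second comparison went against the disrupted gene. On its arrays both PDR1 probes stood well above background on 0 of 4 arrays in the channel labelled double mutant, which should carry PDR1, and on 4 of 4 in the channel labelled triple mutant. In the first comparison both probes did so on 4 of 4 arrays in each strain. With the labels turned, the channel without PDR1 signal would be the triple mutant, in which PDR1 is disrupted. YOR1 had a log2 ratio of 1.94 ± 0.18 (SD, n = 4) over wild type, although its gene is labelled as disrupted, and PDR5 had -1.46 ± 0.227 (SD, n = 4). In the second comparison, labelled double over labelled triple mutant, PDR1 had -2.36 ± 0.832 (SD, n = 4) and YOR1 -1.67 ± 0.189 (SD, n = 4). Both were below 0 on 4 of 4 arrays, and PDR5 had -0.14 ± 0.16 (SD, n = 4). The ratio of the second comparison is therefore given as the channel labelled double over the channel labelled triple mutant, and where a direction is drawn from it the reading with the labels turned stands beside it.

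Secreted and membrane proteins enter the ER through the Sec61 channel and fold there with the help of Hsp70 chaperones, their J-domain and exchange factors, disulfide isomerases and prolyl isomerases. When unfolded protein accumulates, the sensor Ire1 cuts the HAC1 transcript, splicing lets the Hac1 transcription factor be made, and Hac1 raises many ER genes. Proteins that fail to fold are moved back to the cytosol by the Hrd1 and Doa10 ubiquitin ligase complexes and are destroyed by the proteasome. In yeast, KAR2 and PDI1 are textbook targets of this response.

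In the double mutant most folding genes rose, with the highest ratios for the Hsp70 chaperone gene KAR2 and the disulfide isomerase gene MPD1. Of the 16 folding genes 11 rose, and their group median was 0.40 on the log2 scale. Of the 7 translocation genes 2 rose, with a median of 0.13, and of the 12 degradation genes 2 rose, with a median of 0.11. In these groups 0 genes fell, and neither signalling gene nor PER1 passed the test. A gene was called when its adjusted p in limma, corrected over all 6465 genes, was below 0.05. The spread behind this p was shared over the arrays of both comparisons. Array quality weights in limma, lower for noisier arrays, were 0.192 to 0.682 here and 0.976 to 4.19 in the other comparison. The shared spread can then be too small here and too large there, for p-values and intervals alike. At adjusted p below 0.05, 8.21% of all genes were called, 3.25% higher and 4.97% lower. The median of all genes was -0.01. In all, 15 of 38 members rose, by 0.25 to 0.85 on the log2 scale, and the other 23 lay between -0.22 and 0.23. An unadjusted p below 0.05 was found for 23 of the 38, against 24.6% of all genes. All 15 called members were above 0 on 4 of 4 arrays, as were 20 of the 38, against 11.3% of all genes. The folding median was 0.30, 0.33, 0.31 and 0.41 on arrays 1 to 4. The degradation median was 0.07, 0.03, 0.09 and 0.22, so array 4 was the highest for both. That array also had the lowest quality weight of all arrays (0.192). The gap between folding and degradation genes was not tested as such.

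**Figure D1:**
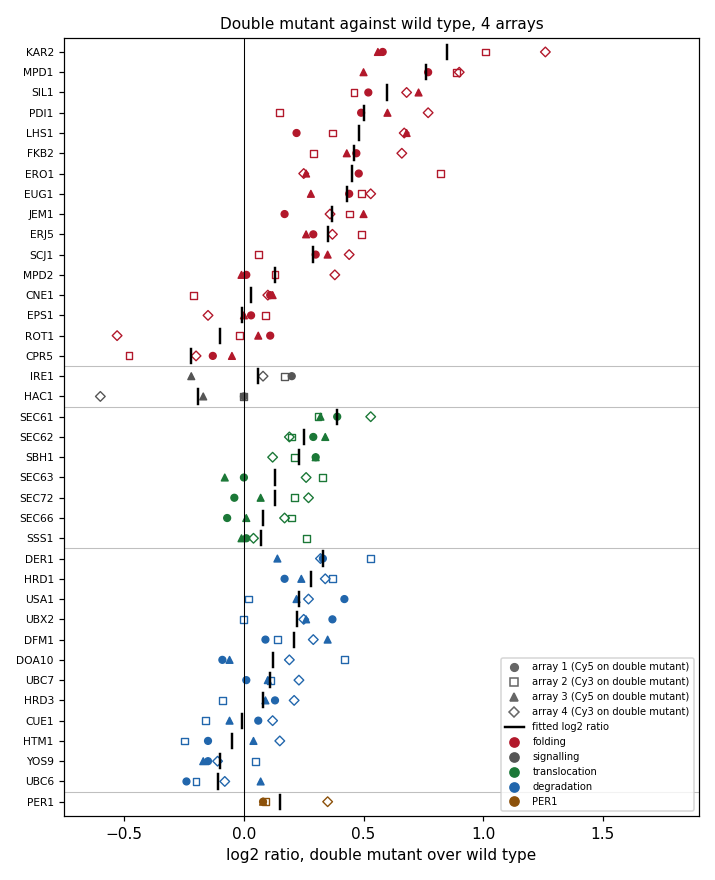
Log2 ratios of the 38 genes, double mutant over wild type (horizontal axis), with 1 row a gene, grouped by role and sorted by fitted ratio. Symbols are the 4 arrays, filled where the double mutant was in Cy5 and open where it was in Cy3, and the black bar is the fitted ratio. Most folding genes lie right of 0 on all 4 arrays, with KAR2 between 0.56 and 1.26, and the fitted ratios of the degradation genes lie between -0.11 and 0.33.

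KAR2 and the genes of its exchange factors, SIL1 and LHS1, each rose. KAR2 (YJL034W), which encodes the ER Hsp70 that binds unfolded chains and pulls nascent chains into the lumen, had log2 ratios of 0.58, 1.01, 0.56 and 1.26 on arrays 1 to 4. Both arrays with the double mutant in Cy3 were higher than both with it in Cy5, and all 4 were well above 0. The fitted rise was 1.81-fold (log2 ratio 0.85 ± 0.344, SD, n = 4; adjusted p = 0.000412), which ranked 23 of 6465 genes. SIL1 (YOL031C), a nucleotide exchange factor of Kar2, had 0.52, 0.46, 0.73 and 0.68. These 4 values lay within a narrow range far from 0, and the rise was 1.51-fold (0.60 ± 0.125, SD, n = 4; adjusted p = 0.00179). LHS1 (YKL073W), a large Hsp70-like protein that also exchanges the nucleotide of Kar2, had 0.22, 0.37, 0.68 and 0.67. The lowest of these was array 1, and the fit gave 1.40-fold (0.48 ± 0.227, SD, n = 4; adjusted p = 0.0121).

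Of the J-domain partners of Kar2 among the members, JEM1, ERJ5 and SCJ1 rose, and SEC63, given with the channel genes, was not called (0.13; adjusted p = 0.162). JEM1 (YJL073W), a J protein needed for nuclear fusion in mating, had log2 ratios of 0.17, 0.44, 0.50 and 0.36. ERJ5 (YFR041C), a membrane-bound J protein, had 0.29, 0.49, 0.26 and 0.37, and SCJ1 (YMR214W), a soluble J protein of the lumen, had 0.30, 0.06, 0.35 and 0.44. Every value was positive, with the lowest, 0.06, for SCJ1 on array 2. The rises were 1.29-fold for JEM1 (adjusted p = 0.0151) and 1.28-fold for ERJ5 (adjusted p = 0.00996). SCJ1 rose 1.22-fold (0.29 ± 0.16, SD, n = 4; adjusted p = 0.0416), but with 1 of the 8 arrays removed the call was kept in 2 of 8 cases (ratios of 0.20 to 0.35), when array 2 or array 4 of the comparison with wild type was removed.

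Among the genes of disulfide bond formation, MPD1, PDI1, EUG1 and ERO1 rose, and the differences between them were not tested. MPD1 (YOR288C), a disulfide isomerase homologue, had log2 ratios of 0.77, 0.89, 0.50 and 0.90. It was lowest on array 3 and rose 1.70-fold (0.76 ± 0.187, SD, n = 4; adjusted p = 0.00142). PDI1 (YCL043C), the main disulfide isomerase of the ER, had 0.49, 0.15, 0.60 and 0.77, with array 2 far below the others. Its rise was 1.42-fold (0.50 ± 0.264, SD, n = 4; adjusted p = 0.0231), with 0.34 without array 4, and the call was lost without array 1 or array 3 of this comparison. EUG1 (YDR518W), another homologue, had 0.44, 0.49, 0.28 and 0.53, and rose 1.35-fold with the smallest spread of the 4 (0.43 ± 0.11, SD, n = 4; adjusted p = 0.00279). ERO1 (YML130C), the oxidase that feeds disulfide bonds to Pdi1, had 0.48, 0.82, 0.26 and 0.25, so that array 2 stood highest. Its rise of 1.37-fold (0.45 ± 0.266, SD, n = 4; adjusted p = 0.0292) was called in 2 of 8 cases with 1 array removed, array 4 of this comparison or array 1 of the other, with ratios of 0.37 to 0.60 over the 8.

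The 2 remaining members of the isomerase family did not pass the test. MPD2 (YOL088C) had a log2 ratio of 0.13 (95% interval 0.01 to 0.24; adjusted p = 0.162), with 0.38 on array 4 and -0.01 to 0.13 on the other arrays. EPS1 (YIL005W), a membrane-bound family member that takes part in the degradation of a misfolded plasma membrane proton pump, had -0.01 (95% interval -0.13 to 0.12; adjusted p = 0.957). The intervals of MPD2 and EPS1 lay below that of MPD1 (0.59 to 0.94) without overlap.

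Prolyl isomerase genes differed in sign. FKB2 (YDR519W, named FPR2 in RefSeq), an FK506-binding prolyl isomerase, had log2 ratios of 0.47, 0.29, 0.43 and 0.66 and rose 1.38-fold (0.46 ± 0.153, SD, n = 4; adjusted p = 0.00507). FKB2 and EUG1 are neighbours in the RefSeq gene order, and they were the 1 pair of adjacent genes among the 38. CPR5 (YDR304C), a cyclophilin of the ER, had -0.13, -0.48, -0.05 and -0.20, the 1 member below 0 on all 4 arrays, as were 13.9% of all genes. Its fitted ratio was -0.22 (95% interval -0.35 to -0.08; adjusted p = 0.062), and it was called lower without array 4 (-0.26; adjusted p = 0.0309).

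The calnexin relative and ROT1 were not called. CNE1 (YAL058W), the yeast relative of calnexin, had a log2 ratio of 0.03 (95% interval -0.11 to 0.17), with -0.21 on array 2 and 0.10 to 0.12 on the others. ROT1 (YMR200W), an essential chaperone of the ER membrane, had -0.10 (95% interval -0.29 to 0.10). Its value on array 4 was -0.53, while arrays 1 to 3 lay between -0.02 and 0.11, and without array 4 it had 0.03.

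Neither signalling gene was called. HAC1 (YFL031W), which encodes the transcription factor of the response, had log2 ratios of 0.00, 0.00, -0.17 and -0.60, so the low fitted ratio of -0.19 (95% interval -0.41 to 0.02; adjusted p = 0.253) moved with array 4, and without array 4 the ratio was -0.09. Without array 2 HAC1 was called lower (-0.33; adjusted p = 0.0286). The files do not place the HAC1 probes relative to its intron, so cut and uncut transcripts cannot be told apart here. IRE1 (YHR079C), the sensor kinase and nuclease, had 0.20, 0.17, -0.22 and 0.08, with array 3 apart from the others in sign. Its fitted ratio was 0.06 (95% interval -0.16 to 0.27; adjusted p = 0.747).

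At the translocation channel, the gene of the pore rose and those of its small subunits were not called. SEC61 (YLR378C), the channel itself, had log2 ratios of 0.39, 0.31, 0.32 and 0.53 and rose 1.31-fold (0.39 ± 0.101, SD, n = 4; adjusted p = 0.00857). SEC62 (YPL094C), a subunit of the complex that serves translocation after translation, had 0.29, 0.20, 0.34 and 0.19 and rose 1.19-fold (0.25 ± 0.0722, SD, n = 4; adjusted p = 0.0175). For both genes the spread between arrays was small against the distance from 0. SBH1, a small subunit of the channel, had a ratio of 0.23 (95% interval 0.08 to 0.38; adjusted p = 0.0733), with values of 0.12 to 0.30, and was called with its dimmer probe (0.33) in place of the brighter one. SSS1, another small subunit, had 0.07, and the partners of Sec62, namely SEC63, SEC66 and SEC72, had 0.13, 0.08 and 0.13. In these 3 genes arrays 2 and 4 were the higher ones, with means of 0.29, 0.19 and 0.24 against -0.04, -0.03 and 0.02 on arrays 1 and 3.

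In the degradation branch 2 genes were called, DER1 and HRD1, while other genes of the same Hrd1 complex were not. DER1 (YBR201W), a derlin that helps proteins cross back through the membrane, had log2 ratios of 0.33, 0.53, 0.14 and 0.32. It rose 1.26-fold (0.33 ± 0.16, SD, n = 4; adjusted p = 0.0164). DER1 was not called with array 1 or array 3 removed (0.27 and 0.35), and from the scanner's processed signals its ratio was 0.58 (adjusted p = 0.0911). HRD1 (YOL013C), the ubiquitin ligase at the centre of the complex, had 0.17, 0.37, 0.24 and 0.34 and rose 1.21-fold (0.28 ± 0.0907, SD, n = 4; adjusted p = 0.0139), and was not called with array 3 removed. USA1, the scaffold of the complex, and UBX2, which recruits the Cdc48 ATPase, had 0.23 and 0.22, just short of the threshold (adjusted p = 0.0608 and 0.0507). Both had arrays 1, 3 and 4 between 0.22 and 0.42 and array 2 near 0, and without array 2 both were called (0.29 and 0.26, the highest ratios over the alternatives; adjusted p = 0.0389 and 0.0455). DFM1, a second derlin, had 0.21 (adjusted p = 0.0907). HRD3, the partner of Hrd1, had 0.08, and UBC7 and CUE1, the conjugating enzyme and its membrane anchor, had 0.11 and -0.01.

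The glycan readers and the Doa10 branch lay near 0. YOS9, a lectin that reads trimmed glycans, had a log2 ratio of -0.10 (95% interval -0.20 to 0.01), and HTM1 (MNL1 in RefSeq), the mannosidase that makes the mark, had -0.05 (-0.22 to 0.12). DOA10 (SSM4 in RefSeq), the other ligase, had 0.12 (-0.00 to 0.24), from 0.42 and 0.19 on arrays 2 and 4 to -0.09 and -0.06 on arrays 1 and 3. UBC6, its membrane-bound conjugating enzyme, had -0.11 (-0.25 to 0.03). The lowest and highest ratios in the degradation branch were thus -0.11 for UBC6 and 0.33 for DER1. PER1, which remodels the lipid of glycosylphosphatidylinositol anchors, had 0.15 (-0.01 to 0.31), with 0.35 on array 4 and 0.08 or 0.09 on the others.

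Each gene had 2 probes, which gave nearly the same answer against wild type. In all 15 called members the other probe also lay above 0, and its ratio differed by at most 0.06 from the one reported, and by at most 0.1 over the 38 genes. In the second comparison the largest difference was 0.12, which is large beside the ratios there. HAC1 had 0.09 with the reported probe and 0.21 with the other, and SBH1 had 0.17 and 0.06. For all members but SCJ1 the reported probe was brighter than background in all 16 measurements (8 arrays, both channels), and for SCJ1 in 14.

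A wider list of 51 genes that act in or with these pathways, none of them members, had 2 genes called higher and 0 lower. Of all genes 3.25% were called higher and 4.97% lower, so the higher calls were near background. The median log2 ratio of the list was 0.05. The called genes were LCL2 (YLR104W), with 0.43, 0.25, 0.46 and 0.53 on the 4 arrays (fitted 0.42; adjusted p = 0.00491), and ULI1 (YFR026C), with 0.32, 0.37, 0.24 and 0.51 (fitted 0.36; adjusted p = 0.00489). By role, 0 of 8 genes of targeting and signal peptidase, 0 of 8 of glycan trimming and oxidation, 0 of 8 cargo chaperones and co-chaperones and 0 of 10 of membrane insertion were called. With 8.21% of all genes called, groups this small say little by having no call. Among 14 partners in degradation, which include CDC48, UFD1 and NPL4 of the segregase, the called gene was LCL2. ULI1 was listed in a group of 3 with TRL1 and PTC2, the genes of HAC1 splicing and control. Neither TRL1 (-0.04) nor PTC2 (-0.12) was called. Over the 51 genes 12 had an unadjusted p below 0.05, a share near the 24.6% of all genes.

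The number of calls changed with the setting, as did that over all genes. With the 4 arrays of this comparison alone 2 members, KAR2 and MPD1, were called, as were 0.387% of all genes, and from the scanner's processed signals 2 were called, SIL1 and MPD1, as were 0.619% of all genes. With median centring KAR2, SIL1 and MPD1 were called, as were 0.835% of all genes. In all of the 22 other settings tried each of the 15 ratios stayed above 0, and MPD1 was the 1 gene called in every setting. KAR2, LHS1, SIL1, EUG1, MPD1, ERJ5, FKB2 and SEC61 were called whichever of the 8 arrays was removed.

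**Figure D2:**
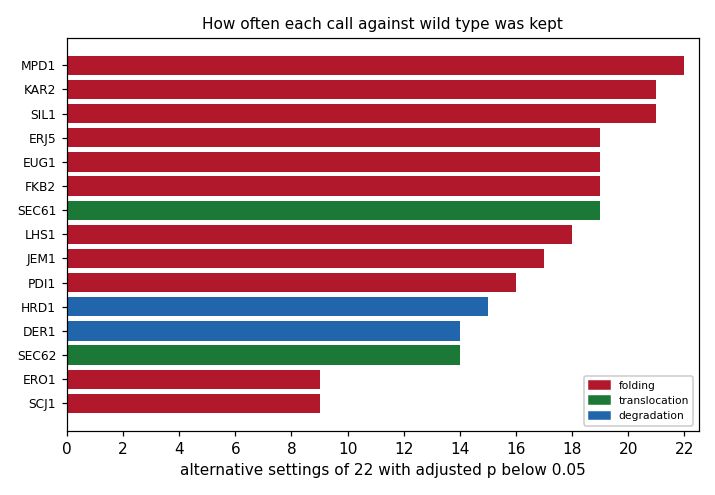
Number of the 22 other processing settings (horizontal axis) in which each of the 15 called genes kept an adjusted p below 0.05 for the double mutant over wild type. Bars are coloured by role, and MPD1 reaches 22, KAR2 and SIL1 21, and ERO1 and SCJ1 9.

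Loss of PDR1 in the same transporter-deficient strain is the question of the second comparison, and there 0 of 38 members were called in limma. Background in this comparison was 1.59% of all genes, 1.05% higher and 0.541% lower in the channel labelled double mutant. Of the 38 members 2 had an unadjusted p below 0.05, PER1 (0.0298) and SBH1 (0.0306), a smaller share than the 14.6% of all genes. The other probe of SBH1 had a log2 ratio of 0.06, against 0.17 for the one reported, and that of PER1 0.14 against 0.18. Fitted log2 ratios lay between -0.12 and 0.18, with a median of 0.01 over the members, 0.01 over the folding genes, 0.03 over the degradation genes and -0.03 over the translocation genes. All 95% intervals together, which rest on the spread shared with the noisier arrays of the first comparison, spanned -0.28 to 0.34. Whichever way the labels are read, members thus differed between these strains by less than the rise of KAR2, MPD1 or SIL1 against wild type.

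**Figure D3:**
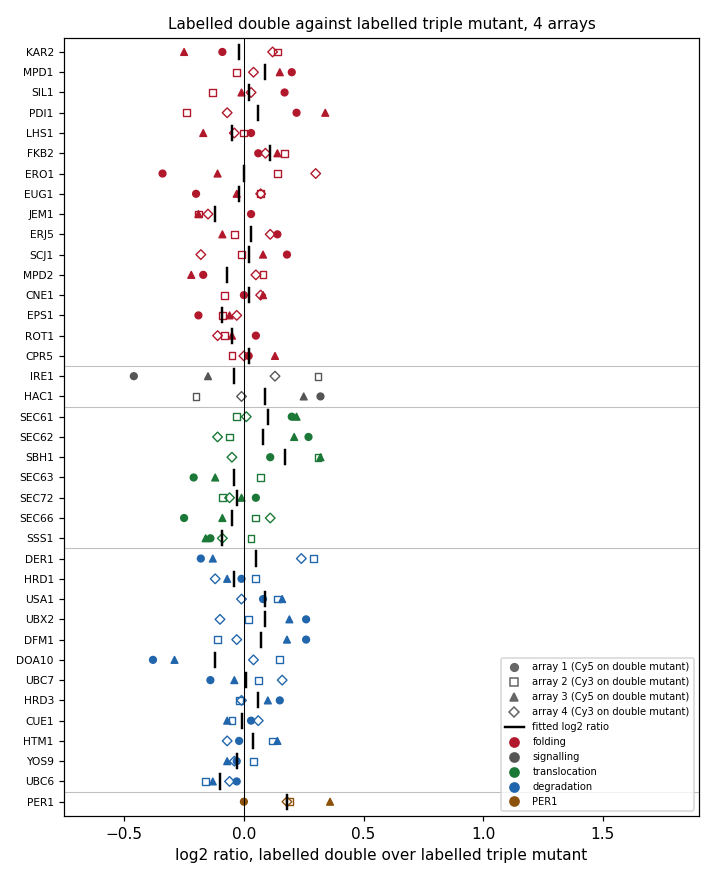
Log2 ratios of the 38 genes, channel labelled double over channel labelled triple mutant (horizontal axis, same scale as in the plot against wild type), with 1 row a gene in the same order. Symbols are the 4 arrays and the black bar is the fitted ratio. All fitted ratios lie between -0.12 and 0.18, and IRE1 and DOA10 have their filled symbols (arrays 1 and 3) left of their open ones.

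The genes that led the first comparison lay near 0 in this one. KAR2 had log2 ratios of -0.09, 0.14, -0.25 and 0.12 on arrays 1 to 4, with a fitted ratio of -0.02 (95% interval -0.17 to 0.12; adjusted p = 0.929). Its 2 Cy5 arrays were below 0 and its 2 Cy3 arrays above, the same order by dye as against wild type. MPD1 had 0.20, -0.03, 0.15 and 0.04, with 0.09 (-0.08 to 0.26), and SIL1 had 0.17, -0.13, -0.01 and 0.03, with 0.02 (-0.13 to 0.16). Over the 11 folding genes called against wild type the ratios ran from -0.12 for JEM1 to 0.11 for FKB2. FKB2 was above 0 on all 4 arrays (0.06, 0.17, 0.14 and 0.09), as was PER1 (0.00, 0.19, 0.36 and 0.18, the first just above 0), and 13.0% of all genes were too. EPS1 and UBC6 were below 0 on all 4, as were 12.3% of all genes. These 2 members in each direction are a smaller share of the 38 than those backgrounds.

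Genes of the other branches stayed within the same band. SEC61 had a log2 ratio of 0.10 (95% interval -0.04 to 0.24) and SEC62 0.08 (-0.03 to 0.19), each with arrays 1 and 3 at 0.20 to 0.27 and arrays 2 and 4 at -0.11 to 0.01. DER1 had 0.05 (-0.09 to 0.19) and HRD1 -0.04 (-0.15 to 0.07). HAC1 had 0.09 (-0.12 to 0.31), and IRE1 had -0.04 (-0.26 to 0.17) with the widest range of the 38, from -0.46 on array 1 to 0.31 on array 2. SEC63 was measured on 3 arrays here, since its spot on array 4 was marked as an outlier. Of the wider list of 51 genes 0 were called, against 1.59% of all genes. In that list 3 had an unadjusted p below 0.05, also a smaller share than the 14.6% of all genes, and the median was 0.00. With array quality weights 7 members were called in this comparison, 4 higher and 3 lower, with 31.8% of all genes called, and with its 4 arrays alone 1 was called, PER1, with 19.3% of all genes called.

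**Figure D4:**
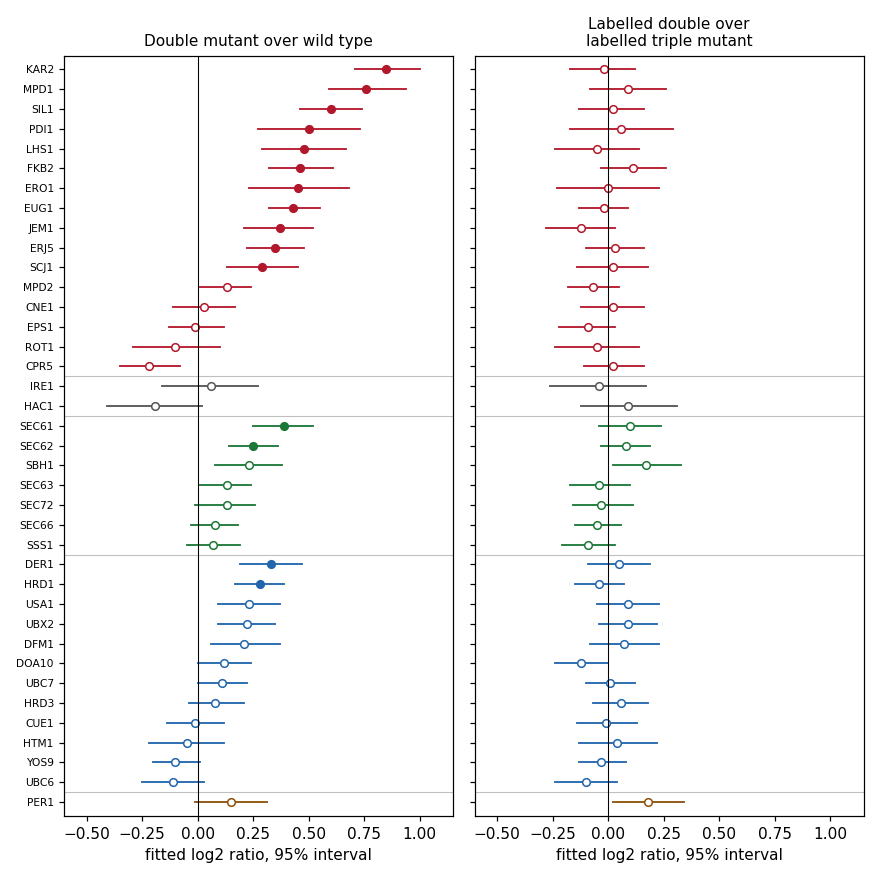
Fitted log2 ratios (horizontal axis) with 95% intervals from limma for the 38 genes in both comparisons, filled where the adjusted p was below 0.05. On the left 15 genes are filled, 11 of them folding genes, and on the right 0 are filled and all intervals lie between -0.28 and 0.34.

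The difference between both comparisons was tested directly in the same fit, as the triple mutant over wild type through the double mutant. With the labels as given, which the PDR1 probes went against, 9 of 38 members were called higher in the triple mutant than in wild type. They were 8 folding genes and HRD1, against 2.77% of all genes called higher. KAR2 had a log2 ratio of 0.87 (SE 0.0899; adjusted p = 0.00143), SIL1 0.58 (SE 0.0875; adjusted p = 0.00588) and JEM1 0.49 (SE 0.0935; adjusted p = 0.0151). With the labels turned, the strain without PDR1 signal is the triple mutant. In that reading 4 members were higher, against 0.371% of all genes, and no other member was called. These were KAR2 (0.83; adjusted p = 0.0176), MPD1 (0.85; adjusted p = 0.0228), SIL1 (0.61; adjusted p = 0.0315) and FKB2 (0.58; adjusted p = 0.038). All 4 were also among the 9 under the labels as given. This contrast shares the arrays of both comparisons and was added after the values of the members had been seen.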

How the data were processed

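Total RNA was labelled with Cy3 and Cy5 through aminoallyl cDNA, per the labels, and the authors scanned all 8 arrays, which share 1 slide and 1 scan, with Agilent Feature Extraction 10.7.3.1. The deposited intensity columns used are mean, background and processed signals, and the other deposited columns used are 0 or 1 flags, per the file headers. A further table, of log2 values deposited by the authors, was left aside, since its 8 value columns match no sample's labels. Mean intensity was corrected by normexp (offset 50) and scaled by loess with limma 3.58.1 in R 4.3.3. Spots marked as outliers were left out, and 0 spots were saturated. Control spots (536) had no weight. Of 13092 probes 12872 passed the filter (brighter than background in 4 or more of 16 channel measurements), and the brighter probe represented each of 6465 genes. Between 85.7% and 98.7% of probes per channel stood well above background.

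A linear model in limma had 1 coefficient per comparison and a common dye term (5 residual degrees of freedom), with Benjamini-Hochberg adjustment over all genes. The procedure was tested on simulated data. The labels do not say whether arrays came from separate cultures, so the spread behind each p-value may be technical, and the number of arrays limits the precision. The slide rows follow the comparisons, so position on the slide and comparison cannot be told apart. The members, the wider list and the tests were chosen with earlier results of these data known. All members could be named, with full values for called ones. Planned descriptions of promoters and proteins were not made, and hybridisation between related genes was not tested. Gene names and neighbours came from RefSeq (assembly R64); by name or synonym all 38 members and 51 further genes matched.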

Additional observations from a re-analysis of the deposited data

Results flagged for a closer look

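Of 89 sets of 4 array values tested, those of the 38 genes, the 3 disrupted genes and the medians of their groups, 3 held an array that stood far from the other 3, fewer than the 1 in 20 that chance gives. CNE1 had a log2 ratio of -0.21 on array 2 of the comparison with wild type, against 0.10 to 0.12 on the others. PER1 had 0.35 on array 4 of that comparison, against 0.08 to 0.09. PDR1 had -1.12 on array 2 of the second comparison, against the triple mutant, against -2.88 to -2.63, with the PDR1 probes not well above background in the channel labelled double mutant. That array also had the lowest median signal in Cy3 of the 8 (116.9 intensity units), and its part in the value was not tested.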

How the results depend on the processing

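Against wild type the 15 called members became 2 with the processed signals, 3 with median centring, 2 with the arrays of the comparison alone and 8 with dye-swap pairs averaged, while the share of all genes called went from 8.21% to 0.619%, 0.835%, 0.387% and 5.46%. The 11 folding calls became 2, 3, 2 and 7 in these settings, the 2 degradation calls 0 in each, and the 2 translocation calls 0, 0, 0 and 1. Without the dye term and with array quality weights 1 degradation and 1 translocation gene were called, with 6.34% and 4.28% of all genes called. Leaving out 1 array in turn gave 8 to 17 members, 7 to 12 folding, 0 to 4 degradation and 1 to 2 translocation genes. The counts were lowest without array 3 for members, folding and degradation genes, with 3.14% to 12.8% of all genes called. They take both directions. Without array 2 of the comparison with wild type, 16 members were called higher and 1, HAC1, lower. Without array 4 of it, 11 folding genes were called higher and 1, CPR5, lower. Replicate numbers are shared by the comparisons, but same-numbered arrays did not deviate together (correlations of -0.175, 0.202, 0.0692 and -0.0611). After the dye term the correlations were -0.693, 0.0168, -0.62 and -0.589. Same-numbered arrays share a dye orientation, and fitting a common dye term pushes what remains of them apart. The values after the dye term therefore cannot show a shared deviation. With the replicate block 9 members, 8 folding, 0 degradation and 1 translocation genes were called, with 3.77% of all genes. The group medians against wild type moved by less than their spread between arrays in all settings.

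Against the triple mutant array quality weights called 7 members (2 folding, 1 degradation, 3 translocation), with 31.8% of all genes called. The arrays of the comparison alone called 1, with 19.3% of all genes called. From the processed signals the medians were 0.07 for members, 0.11 for degradation and 0.05 for translocation genes, where that of all genes was 0.05. The causes were not tested. A dye term per comparison, chosen after seeing the data, left all 15 calls against wild type in place. No called ratio of a member reversed in any setting.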
